A study of Nothobranchius furzeri with 6 samples.

Results

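Horizontal cells are the inhibitory interneurons of the outer retina, and 2717 of the 37243 cells in the killifish dataset (7.30%) carried this name in the cell type column of the authors' cell table. Every cell with that name was taken. The retinas came from untreated wildtype females of Nothobranchius furzeri, the African turquoise killifish, all of the short-lived inbred strain GRZ-AD, at 6, 12 and 18 weeks of age. There were 2 droplet libraries per age (10x Genomics, 3' chemistry), each a pool of 3 fish at 6 weeks and of 2 fish at 12 and 18 weeks, so that single fish could not be followed. The retinal pigment epithelium had been taken off and the neural retina digested with papain. The ages were compared to find out how the share of horizontal cells among captured cells, and their transcripts, differ between young and old fish.

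The dendrites of horizontal cells reach into the terminals of cones and rods, where they receive glutamate through AMPA-type receptors and return an inhibitory feedback for which GABA, protons and hemichannels have each been put forward. Neighbouring horizontal cells are joined by gap junctions into a wide network that averages light over the retina. Transcription factors of the Onecut family, Prox1 and Lhx1 take part in making these cells, and in chick Lhx1 marks horizontal cells with an axon while Isl1 marks those without one.

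A transcript was counted by its unique molecular identifier (UMI), a random tag by which copies of one molecule are counted once. The libraries held 443 and 542 horizontal cells at 6 weeks, 544 and 413 at 12 weeks and 416 and 359 at 18 weeks (replicates 1 and 2), and their summed counts lay between 2042239 and 2342958 UMIs. Over all cells 171 barcodes occurred in more than 1 library, and among horizontal cells there were 0 such barcodes. In all comparisons a library is 1 replicate, n is 2 per age, and the spread between libraries includes whatever is technical. Levels are given as CPM, counts of a gene per 1000000 UMIs of the horizontal cells of a library, or of the cluster or cell type named. In the tests between ages CPM were scaled further, as described there, so that they can differ from the levels given for markers and clusters. They were not divided by transcript length.

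The markers were measured first, to check the name of the cells against the data. LHX1A (XLOC_011715), a LIM homeobox factor, lay between 244 and 376 CPM in the horizontal cells of the 6 libraries, with a mean 30.1 times that of the next of the 10 cell types with enough cells. ONECUT2 (XLOC_007252) lay between 488 and 749.9 CPM, 10.3 times the next type, the ganglion cells. PROX1 (XLOC_009002) lay between 99.7 and 130.2 CPM, and its mean of 112 CPM was 2.13 times that of bipolar cells. These 3 entries were highest in the cells that carry the name. Of the other entries looked up, ONECUT3 (XLOC_023523, mean 50.1 CPM), ONECUT3(1OF2) (XLOC_014834, 40.5 CPM) and ONECUTL (XLOC_010410, 61.2 CPM) were 32.5 to 73.8 times higher than in any other type. ONECUT1 (XLOC_002815) was near 0, with a mean of 0.321 CPM. TFAP2A (XLOC_013826), a factor of horizontal and amacrine development, had 292 CPM here and 1067 CPM in amacrine cells. The second entries of these genes went the other way, PROX1(2OF2) (XLOC_008825) with 1.19 CPM here and 107 CPM in amacrine cells and TFAP2A (XLOC_016652) with 0.926 and 155 CPM. Since the types came from clusters of the same counts, these levels are a description without a test.

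There were 69 genes with at least 100 CPM in horizontal cells and at least 10 times the level of every other type, out of 1522 genes with at least 100 CPM. The 12 with the highest ratio included transporters and channels as well as a kinase subunit and secreted proteins. REM1 (XLOC_016436), a small GTPase that restrains voltage-gated calcium channels, had a mean of 462 CPM, 124 times the next type. SLC4A5 (XLOC_006861) and its sister entry SLC4A5(1OF2) (XLOC_024037), sodium bicarbonate cotransporters, had 938 and 951 CPM, which was 106 and 91.4 times the next type. SLC4A3 (XLOC_001971), an exchanger of chloride for bicarbonate, had 1655 CPM (66.1 times). KCNH6(2OF2) (XLOC_018360), a potassium channel of the erg family, had 134 CPM (102 times), and SCN1A (XLOC_020698), a voltage-gated sodium channel, had 931 CPM (70.3 times). Water and phosphate transport were represented by the aquaglyceroporin AQP3A (XLOC_024196, 236 CPM, 93.3 times) and the sodium phosphate cotransporter SLC34A2A (XLOC_014002, 332 CPM, 76.0 times). The remaining leading genes were SLC6A1L (XLOC_005601), of the GABA transporter family, at 1017 CPM (97.4 times), PRKAR2AB (XLOC_001217), a regulatory subunit of protein kinase A, at 3432 CPM (94.8 times), VTNB (XLOC_017303), a vitronectin of the extracellular matrix, at 529 CPM (88.1 times), and HTRA1B (XLOC_018128), a secreted serine protease, at 3732 CPM (82.0 times). Entries marked 1OF2 or 2OF2 are copies of like sequence, and reads could have been shared between such copies.

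**Figure D1:**
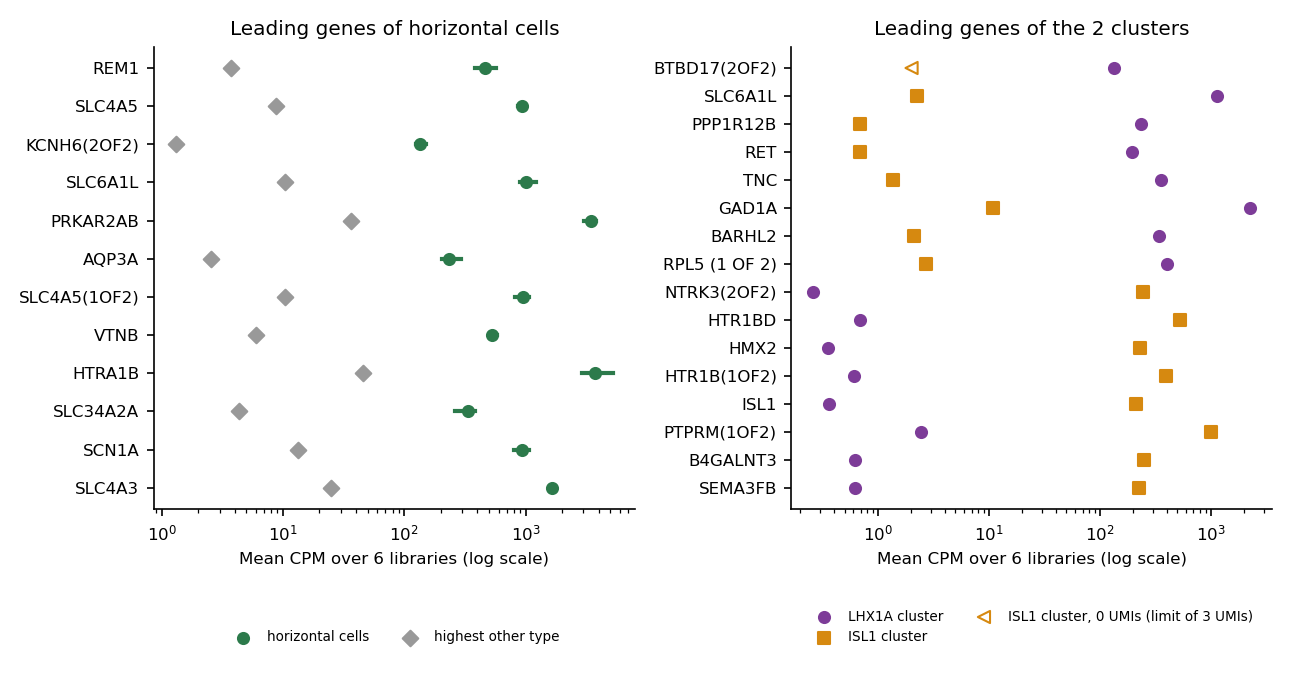
Mean level over the 6 libraries (CPM, logarithmic axis) of the 12 leading genes in horizontal cells and in the next highest cell type, and of 16 genes in the LHX1A and ISL1 clusters of horizontal cells. The leading genes of horizontal cells were 66.1 to 124 times their level in the next type. Both sets of genes were chosen for the largest ratios, so their separation was fixed by that choice.

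Horizontal cells formed a single cluster in the authors' cell table. Clustered on their own, they split into 2 groups, called here after the gene that separates them. The LHX1A cluster held 2296 cells and the ISL1 cluster held 421 cells. In the LHX1A cluster between 60.2% and 87.3% of the cells of a library had an LHX1A UMI, and in the ISL1 cluster between 0% and 3.39%. ISL1 UMIs were found in 32.2% to 59.6% of the cells of the ISL1 cluster and in 0% to 0.796% of those of the LHX1A cluster. Median depth ranged from 4040 to 6732 UMIs per cell in the LHX1A cluster and from 2942 to 4583 in the ISL1 cluster. In each library the median was lower in the ISL1 cluster. A cell type was not read from these names, as only LHX1A and BARHL2 on one side and ISL1 on the other were at hand as markers. The authors described 2 classes of horizontal cells, positive for isl1 or for lhx1a. How far the clusters match these classes cell by cell was not tested.

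There were 44 genes of at least 100 CPM in the LHX1A cluster that were at least 10 times higher there, and 67 such genes in the ISL1 cluster. GABA genes fell on the LHX1A side. GAD1A (XLOC_020678), which makes GABA from glutamate, had 1739 to 2822 CPM in the LHX1A cluster and 0 to 53.5 CPM in the ISL1 cluster. GAD1B (XLOC_014915), another glutamate decarboxylase, had a mean of 1237 against 64.3 CPM, and SLC6A1L had 1149 against 2.26 CPM. The vesicular glutamate transporter SLC17A6B (XLOC_013122) was on the same side, with 618 against 5.17 CPM. BARHL2, a homeobox factor, had 342 against 2.11 CPM, RET, the receptor kinase of the GDNF ligands, 195 against 0.686 CPM, and the matrix protein TNC 356 against 1.37 CPM. BTBD17(2OF2) had 135 CPM in the LHX1A cluster and no UMI among the 1491456 UMIs of the ISL1 cluster, which makes it at least 67.1-fold higher against a floor of 3 UMIs over the whole cluster.

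The ISL1 cluster was marked by receptors and other homeobox factors. HMX2 (XLOC_007672) had 131 to 315 CPM there and 0 to 2.12 CPM in the LHX1A cluster. The serotonin receptor entries HTR1BD and HTR1B(1OF2) had means of 530.1 and 393 CPM, against 0.689 and 0.608 CPM. NTRK3(2OF2), a neurotrophin receptor, had 248 against 0.262 CPM, the receptor phosphatase PTPRM(1OF2) 1000.1 against 2.45 CPM, and the semaphorin SEMA3FB 228 against 0.621 CPM. ONECUT2 (629 and 396 CPM), PROX1 (104 and 176 CPM) and HTRA1B (3726 and 3814 CPM) were measured in both clusters. Like those of the cell types, the levels of the clusters are given without a test.

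To compare the ages, the share of horizontal cells among all captured cells was taken per library. It was 6.34% (Wilson 95% interval 5.79 to 6.94) and 7.49% (6.91 to 8.12) at 6 weeks, 8.23% (7.59 to 8.92) and 6.57% (5.98 to 7.21) at 12 weeks and 7.82% (7.13 to 8.57) and 7.47% (6.76 to 8.25) at 18 weeks. The intervals cover counting error only. The libraries of 12 weeks spanned those of 18 weeks, and the means of 6.92% ± 0.814 at 6 weeks and 7.65% ± 0.246 at 18 weeks (SD, n = 2) differed by 0.731 percentage points, within the spread between libraries (two-sided exact permutation p 0.4, adjusted 0.72). Without replicate 1 of 6 weeks the difference was 0.156 points.

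The ISL1 cluster made up 14.9% (11.9 to 18.5) and 19.7% (16.6 to 23.3) of the horizontal cells at 6 weeks, 14.5% (11.8 to 17.7) and 13.8% (10.8 to 17.5) at 12 weeks and 14.2% (11.2 to 17.9) and 14.8% (11.5 to 18.8) at 18 weeks. Only replicate 2 of 6 weeks stood apart. The mean of 14.5% ± 0.410 at 18 weeks was 2.85 percentage points under the 17.3% ± 3.42 at 6 weeks (exact permutation p 0.244, adjusted 0.549), and without replicate 2 of 6 weeks the 2 ages differed by 0.43 points. Depth per cell was measured because it limits the rest. Median UMIs per horizontal cell were 4647 and 4131 at 6 weeks, 3859.5 and 5149 at 12 weeks and 4993 and 6497 at 18 weeks. Both values of 18 weeks were above those of 6 weeks, by a mean of 1356 UMIs (exact permutation p 0.178, adjusted 0.549). Over the 9 tests of this kind the adjusted p ranged from 0.549 to 0.933. Before adjustment the smallest p the design allows is 0.0222, and only the widest contrast of a measure can reach it. Adjusted over the 9 tests, even that p is too large for a call at the threshold used for genes below. These tests therefore cannot decide whether the shares or the depth differ with age.

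**Figure D2:**
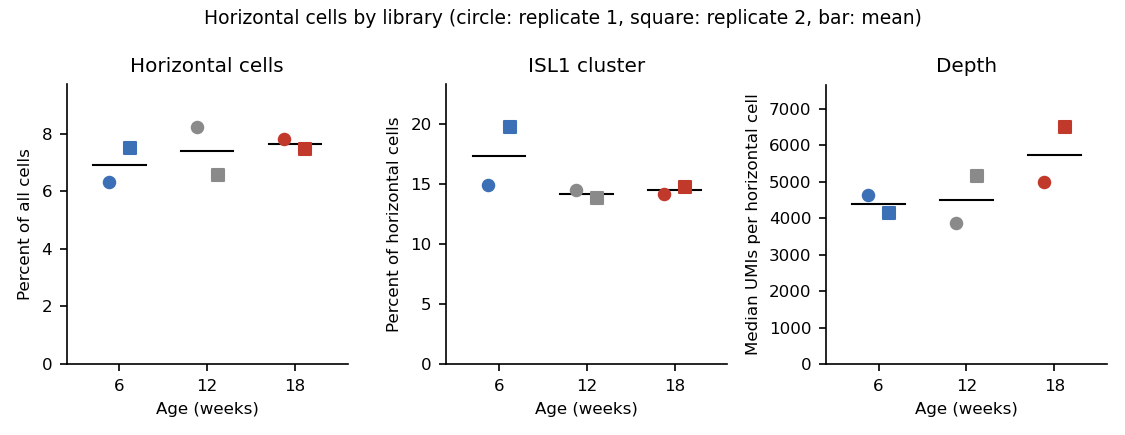
Horizontal cells as a percent of all cells, the ISL1 cluster as a percent of horizontal cells, and median UMIs per horizontal cell, for each of the 6 libraries by age in weeks, with the mean of each age as a bar. The share of horizontal cells ranged from 6.34% to 8.23%, and the highest share of the ISL1 cluster was the 19.7% of replicate 2 of 6 weeks.

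Gene expression was then compared between 18 and 6 weeks in the UMI counts summed over the horizontal cells of each library. EdgeR's quasi-likelihood test was used, with CPM scaled by trimmed means of M-values (TMM) so that a few abundant genes do not shift the rest, and a gene was called when its p, adjusted over all genes tested, was under 5%. Of 11286 genes tested, 188 were higher (1.67%) and 303 lower (2.68%) at 18 weeks, 4.35% in all, and the median log2 fold change over all genes was −0.0036. The number of calls rested on the libraries at hand. It was 108 and 79 without replicates 1 and 2 of 18 weeks, 343 and 300 without replicates 1 and 2 of 6 weeks, and 785 and 799 without replicates 1 and 2 of 12 weeks. DESeq2, whose own filter on low counts left 2971 genes with an adjusted p, called 204 genes, and 192 of the 491 edgeR calls were among them while 202 had no adjusted p there. There were 51 genes (17 higher, 34 lower) that were called at 18 weeks against 6 weeks with all libraries and again without each library in turn. Where 1 of the 18-week-old libraries is left out, the other is taken to vary as the other ages do.

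LDLRAP1B (XLOC_022328), an adaptor for the uptake of the LDL receptor, showed the largest rise among the named genes of at least 50 CPM. Its level was 4.43 and 3.22 CPM at 6 weeks, 37.2 and 26.0 CPM at 12 weeks and 125 and 51.0 CPM at 18 weeks. Each age lay above the one before without overlap, the log2 fold change from 6 to 18 weeks was 4.49 (SE 0.46, adjusted p 0.00014), and the call held without each library (highest adjusted p 0.000405). PBX3A (XLOC_024119), a homeobox partner of Hox and other factors, had 145 and 115 CPM at 6 weeks, 127 and 147 CPM at 12 weeks and 242 and 289.9 CPM at 18 weeks. The libraries of 6 and 12 weeks overlapped and both of 18 weeks stood above them, with a log2 change of 1.04 (SE 0.14, adjusted p 0.000812). SYBU (XLOC_010978), a syntabulin that ties cargo to the kinesin motor, had 71.4 and 60.3 CPM at 6 weeks, 113 and 104 CPM at 12 weeks and 129 and 144 CPM at 18 weeks. It rose by 1.05 on the log2 scale (SE 0.14, adjusted p 0.000642), and by 0.75 (adjusted p 0.132) with each cell thinned to 1000 UMIs.

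HTRA1B, the protease among the leading genes, had 2962 and 2986 CPM at 6 weeks, 3657 and 3637 CPM at 12 weeks and 4206 and 5004 CPM at 18 weeks. Its libraries fell into a separate range at each age, and the rise from 6 to 18 weeks was 0.63 (SE 0.11, adjusted p 0.00588, and 0.128 without replicate 2 of 18 weeks). CDO1 (XLOC_023934), cysteine dioxygenase, had 82.2 and 58.0 CPM at 6 weeks, 89.9 and 154 CPM at 12 weeks and 171 and 152 CPM at 18 weeks (log2 fold change 1.21, SE 0.21, adjusted p 0.00488). SLC3A2 (XLOC_011890), the heavy chain shared by several amino acid transporters, had 148 and 141 CPM at 6 weeks, 363 and 206 CPM at 12 weeks and 349 and 284 CPM at 18 weeks (1.13, SE 0.20, adjusted p 0.00477). For both genes the 18-week-old libraries lay above the 6-week-old ones and overlapped with those of 12 weeks. Without replicate 1 of 18 weeks the adjusted p was 0.0717 for CDO1 and 0.0845 for SLC3A2, and without replicate 2 it was 0.0546 for CDO1. TAT (XLOC_019476), tyrosine aminotransferase, and EEF1A1A (XLOC_000686), a translation elongation factor, rose by 1.75 (SE 0.31, adjusted p 0.00519) and 1.11 (SE 0.19, 0.00388). TAT had an adjusted p of 0.0572 and 0.0810 without replicates 1 and 2 of 18 weeks, and EEF1A1A one of 0.0630 without replicate 2. CLU, the secreted chaperone clusterin, and DYSF, which takes part in membrane repair, were among the 51 genes called without each library as well. They were picked after their values were seen, with log2 fold changes of 0.94 and 0.99.

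**Figure D3:**
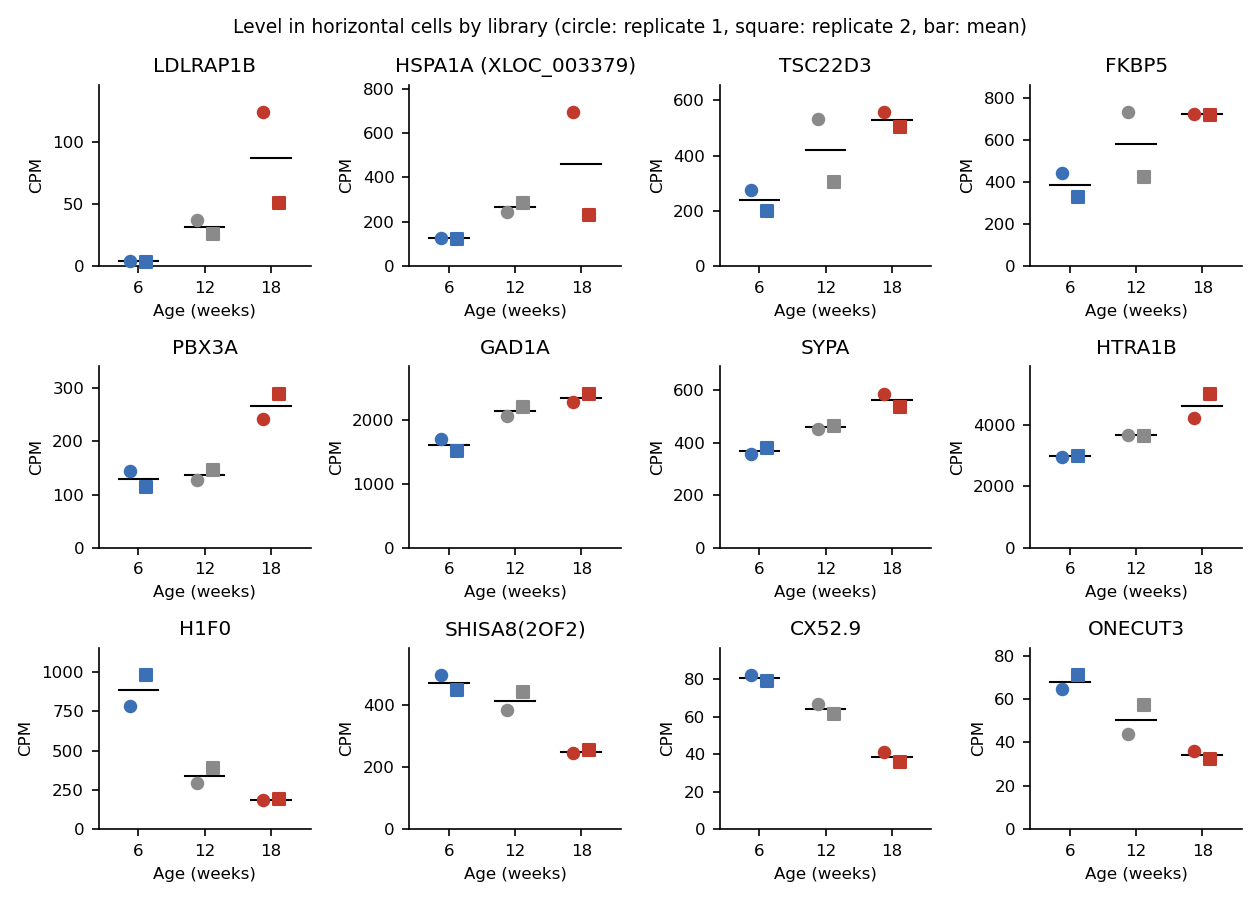
Level of 12 genes (CPM in horizontal cells, scaled with TMM) in each of the 6 libraries by age in weeks, with the mean of each age. LDLRAP1B rose from a mean of a few CPM at 6 weeks to 125 and 51.0 CPM at 18 weeks, while H1F0, SHISA8(2OF2), CX52.9 and ONECUT3 were lowest in the 18-week-old libraries.

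Among the genes for receiving glutamate from photoreceptors, the few entries that edgeR called with all libraries were lower in old fish. Of 30 tested entries for ionotropic glutamate receptors and their auxiliary subunits 0 were higher and 3 lower (all genes: 1.67% higher, 2.68% lower), with a list median of −0.09. The summed CPM of the list was 3792 and 3524 at 6 weeks and 3582 and 3751 at 18 weeks, so that the ages overlapped. With cells thinned to 1000 UMIs 0 of 19 tested entries were higher and 1 lower. SHISA8(2OF2) (XLOC_008503) belongs to the Shisa family, some members of which are auxiliary subunits of AMPA receptors. It had 496 and 447 CPM at 6 weeks, 384 and 443 CPM at 12 weeks and 244 and 255 CPM at 18 weeks. The 18-week-old libraries were the lowest, and the fall of 0.92 (log2 fold change −0.92, SE 0.12, adjusted p 0.000494) was called without each library in turn. SHISA7 (XLOC_024677) had 50.2 and 60.8 CPM at 6 weeks, 35.2 and 32.1 CPM at 12 weeks and 26.4 and 21.2 CPM at 18 weeks (−1.23, SE 0.18, adjusted p 0.00139, and 0.0585 without replicate 2 of 18 weeks). SHISA7 came mostly from the ISL1 cluster, with a mean of 268 CPM there and 6.16 CPM in the LHX1A cluster. Within the clusters its log2 fold changes of −0.90 (adjusted p 0.0609) and −0.58 (adjusted p 0.614) were not called, and the part of the share of the ISL1 cluster in the fall was not tested. GRIA3B (XLOC_005116), an AMPA receptor subunit, had 29.5 and 27.6 CPM at 6 weeks, 20.6 and 16.0 CPM at 12 weeks and 12.7 and 14.3 CPM at 18 weeks. Its ages did not overlap, at a log2 change of −1.07 (SE 0.23, adjusted p 0.0153), and its adjusted p was 0.122 and 0.108 without replicates 1 and 2 of 18 weeks and 0.0553 without replicate 1 of 6 weeks. With cells thinned to 1000 UMIs the adjusted p was 0.383 for SHISA7 and 0.156 for GRIA3B. Of 18 metabotropic receptors and anchors 0 were higher and 2 lower (11.1%, against 4.35% of all genes), namely the scaffold DLG1 (XLOC_023298, −0.50, SE 0.13, adjusted p 0.037) and DLG1L (−1.61). The call of DLG1 was lost without either library of 6 weeks (adjusted p 0.138 and 0.0971) or of 18 weeks (0.177 and 0.233), and with DESeq2 (0.0688).

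The gap junction list held 13 tested entries, of which 0 were higher and 2 lower (15.4%, against 4.35% of all genes). CX52.9 (XLOC_024909), named after a connexin that zebrafish horizontal cells use, had 82.2 and 79.2 CPM at 6 weeks, 66.8 and 61.3 CPM at 12 weeks and 41.0 and 35.9 CPM at 18 weeks. The ages followed each other downwards without overlap, with a log2 change of −1.07 (SE 0.15, adjusted p 0.000998), and the call held without each library (highest adjusted p 0.0423). With cells thinned to 1000 UMIs it was −0.77 (adjusted p 0.247). GJD2(1OF2), an entry for connexin 36, was called at a far lower level, with 5.91 and 6.45 CPM at 6 weeks and 0.943 and 0.817 CPM at 18 weeks. The summed CPM of the list was 851 and 853 at 6 weeks and 913 and 884 at 18 weeks, so that the sum over the list was not lower.

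GABA genes did not move together. Of 22 tested entries for the making, transport and reception of GABA and glycine, 1 was higher and 2 were lower (13.6%, against 4.35% of all genes), with a median of −0.14. GAD1A had 1695 and 1515 CPM at 6 weeks, 2065 and 2198 CPM at 12 weeks and 2269.6 and 2406 CPM at 18 weeks. Its ranges followed each other upwards, with a log2 change of 0.54 (SE 0.11, adjusted p 0.0118), which was not called without replicate 1 of 18 weeks (0.0671), replicate 2 of 18 weeks (0.138) or replicate 2 of 6 weeks (0.0589). GAD1B, with 936 and 959.9 CPM at 6 weeks and 1195 and 1244 CPM at 18 weeks, had 0.36 and did not pass (adjusted p 0.0598). ABAT (XLOC_001909), the transaminase that breaks GABA down, had 287 and 265 CPM at 6 weeks, 255 and 296 CPM at 12 weeks and 146 and 188 CPM at 18 weeks. It was lower in both libraries of 18 weeks (−0.72, SE 0.14, adjusted p 0.00744, and 0.124 without replicate 1 of 18 weeks). SLC6A1L, of the GABA transporter family, had 1047 and 1006 CPM at 6 weeks and 1032 and 1158 CPM at 18 weeks (0.09, adjusted p 0.695). The glycine transporter SLC6A9, a marker of amacrine cells called lower at −1.89, was at 1.41 to 13.6 CPM here and at a mean of 1261 CPM in amacrine cells.

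Among ion channels and pumps few entries were called. Of 25 entries for voltage-gated calcium and sodium channels edgeR called 0, and of 59 entries for ion pumps and pH regulation it called 0. Their unadjusted p was under 0.05 for 3 and 15 entries, against 2124 of all 11286 genes. DESeq2 called 0 of 9 and 1 of 32 that it gave an adjusted p, against 204 of 2971 over all genes. SCN1A had 975 and 819 CPM at 6 weeks and 949.9 and 1024 CPM at 18 weeks (0.14, SE 0.11, adjusted p 0.566). CACNA1D (1 OF 2) (XLOC_021504), the pore of an L-type calcium channel, had 482 and 459.7 CPM at 6 weeks and 463 and 494 CPM at 18 weeks (0.02, SE 0.11, adjusted p 0.931). ATP1B1(1OF2) (XLOC_018550), a beta subunit of the sodium pump, had 0.28 (SE 0.12, adjusted p 0.218), and SLC4A3 had −0.14 (SE 0.10, adjusted p 0.496). In each of these genes the libraries of 6 and 18 weeks differed by less than the call needs, which does not show that they were equal. Of 33 potassium channel entries 1 was higher, KCNH2(1OF2) at a mean level under 10 CPM, and 1 was lower (6.06%, a share near the 4.35% of all genes). The lower one, KCNB2 (XLOC_013776), a delayed rectifier, had 40.9 and 36.9 CPM at 6 weeks, 27.6 and 33.0 CPM at 12 weeks and 18.4 and 20.8 CPM at 18 weeks (−0.98, SE 0.19, adjusted p 0.00954, and 0.0977 and 0.0811 without replicates 1 and 2 of 18 weeks). Of 39 entries for synaptic vesicle release 2 were higher and 2 lower (10.3%, against 4.35% of all genes). SYPA (XLOC_021861), the vesicle protein synaptophysin, had 359 and 379 CPM at 6 weeks, 454 and 462 CPM at 12 weeks and 587 and 536 CPM at 18 weeks. It rose with no overlap between the ages (0.61, SE 0.11, adjusted p 0.00535, and 0.0712 without replicate 1 of 18 weeks).

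Among the transcription factors of horizontal cells ONECUT3 was the one called. Of 17 tested entries 0 were higher and 1 lower (5.88%, a share near the 4.35% of all genes), and the summed CPM of the list was 2343 and 2289 at 6 weeks and 2280.4 and 2420.5 at 18 weeks. ONECUT3 had 64.5 and 70.9 CPM at 6 weeks, 43.7 and 57.1 CPM at 12 weeks and 35.8 and 32.3 CPM at 18 weeks. Its ages did not overlap, with a log2 change of −0.995 (SE 0.17, adjusted p 0.00417), and its adjusted p was 0.0922 without replicate 2 of 18 weeks and 0.225 with cells thinned. LHX1A had 294 and 302 CPM at 6 weeks and 338 and 360.1 CPM at 18 weeks (0.23, SE 0.12, adjusted p 0.31). ONECUT2 and PROX1 had 0.33 (adjusted p 0.121) and −0.22 (adjusted p 0.413), neither of which was called.

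HMX2 and HMX3 (XLOC_007671), homeobox factors of the ISL1 cluster, were lower in the sum of all horizontal cells, with log2 fold changes of −1.42 (SE 0.26, adjusted p 0.0054) and −0.90 (SE 0.16, adjusted p 0.00588). The share of the ISL1 cluster was highest in replicate 2 of 6 weeks, and its part in these values was not tested. Within the cluster, and scaled with TMM there, HMX2 had 301 and 348 CPM at 6 weeks, 237 and 355 CPM at 12 weeks and 146 and 185 CPM at 18 weeks, with a log2 fold change of −0.96 that was not called (SE 0.25, adjusted p 0.0718). HMX3 had 643 and 632 CPM at 6 weeks and 482 and 462 CPM at 18 weeks in the cluster (−0.44, adjusted p 0.382). In the sum of all horizontal cells HMX2 was not called without replicates 1 and 2 of 18 weeks (0.0957 and 0.0558) or replicate 2 of 6 weeks (0.0504), nor was HMX3 (0.0810, 0.0861 and 0.0530).

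Among genes that glucocorticoids are known to induce, 3 were higher in old fish. The list had 14 tested entries, of which 3 were higher and 0 lower (all genes: 1.67% higher and 2.68% lower), with a median of 0.26. TSC22D3 (XLOC_005230), also called GILZ, had 276 and 200.4 CPM at 6 weeks, 534 and 303 CPM at 12 weeks and 557 and 504 CPM at 18 weeks (1.16, SE 0.20, adjusted p 0.00503). KLF9 (XLOC_023754), a Krüppel-like factor, had 55.2 and 52.5 CPM at 6 weeks, 132 and 60.9 CPM at 12 weeks and 145 and 132 CPM at 18 weeks (1.36, SE 0.24, adjusted p 0.00539). FKBP5 (XLOC_015884), a co-chaperone of the glucocorticoid receptor, had 443 and 326 CPM at 6 weeks, 731 and 426 CPM at 12 weeks and 724 and 720.3 CPM at 18 weeks (0.91, SE 0.19, adjusted p 0.0153). In all 3 genes replicate 1 of 12 weeks was about as high as the libraries of 18 weeks, while replicate 2 lay lower. Without replicate 1 of 18 weeks the adjusted p was 0.0750 for TSC22D3, 0.0747 for KLF9 and 0.119 for FKBP5, and without replicate 2 it was 0.0585, 0.0623 and 0.138, so that the list then had 0 calls. FKBP5 further missed the threshold without replicate 2 of 6 weeks (0.0530) and with DESeq2 (0.101).

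Of 68 chaperones of the heat shock and DNAJ families 3 were higher and 1 lower (5.88%, a share near the 4.35% of all genes), with a median of 0.09. HSPA1A is an inducible Hsp70. Its entry XLOC_003379 had 129 and 124 CPM at 6 weeks, 242 and 286 CPM at 12 weeks and 693 and 229 CPM at 18 weeks. The level was well over that of 6 weeks in both libraries of 18 weeks, but replicate 1 of 18 weeks was far above replicate 2, which lay below both libraries of 12 weeks. The log2 fold change was 1.86 (SE 0.33, adjusted p 0.00503), and 0.87 (adjusted p 0.0196) without replicate 1 of 18 weeks. The second entry, XLOC_002541, had 537 and 586 CPM at 6 weeks, 847 and 886 CPM at 12 weeks and 1402 and 805 CPM at 18 weeks (0.97, SE 0.18, adjusted p 0.00687, and 0.53 and 0.0871 without replicate 1 of 18 weeks). The third was DNAJA4 (XLOC_019194, 0.56, SE 0.13, adjusted p 0.0307), a partner of Hsp70, which was not called without either library of 6 weeks (0.0517 and 0.0878) or of 18 weeks (0.232 and 0.0585). Of 16 immediate early genes 2 were higher, FOS (XLOC_008968, 0.79, SE 0.18, adjusted p 0.0258) and the phosphatase DUSP5 (XLOC_006606, 0.61, SE 0.15, adjusted p 0.0368), and 1 lower, KLF6(1OF2) (18.8% called, against 4.35% of all genes). Without replicates 1 and 2 of 18 weeks the adjusted p was 0.0641 and 0.281 for FOS and 0.113 and 0.273 for DUSP5, which also missed the threshold without replicate 2 of 6 weeks (0.257).

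Of 14 entries of the interferon response and antigen presentation 4 were higher and 0 lower (28.6%, against 4.35% of all genes), all 4 at low levels and named after their values were seen. The helicase HELZ2 (XLOC_008486) had 6.40 and 3.69 CPM at 6 weeks, 6.53 and 5.66 CPM at 12 weeks and 27.8 and 22.0 CPM at 18 weeks (2.30, SE 0.32, adjusted p 0.000821), and was called without each library. IRF9 (XLOC_013858), which carries the type I interferon signal to DNA, had 7.39 and 6.45 CPM at 6 weeks, 8.54 and 10.4 CPM at 12 weeks and 35.8 and 19.2 CPM at 18 weeks (1.97, SE 0.34, adjusted p 0.00432). IRF3 (XLOC_018862) and TRIM25 (XLOC_003053), which act in the sensing of viral RNA, had 21.7 and 5.72 CPM and 24.1 and 7.76 CPM at 18 weeks and at most 1.97 CPM in any younger library. The rise of all 4 was thus found between 12 and 18 weeks. Without replicate 1 of 18 weeks the list had 1 call, with cells thinned to 1000 UMIs 0 of 7 tested entries, and with DESeq2 0 of the 2 entries that received an adjusted p. The summed CPM of immune cell markers in horizontal cells was 26.4 and 15.7 at 6 weeks and 36.0 and 13.7 at 18 weeks (3 entries, each found at 18 weeks), and its part in this result was not tested.

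**Figure D4:**
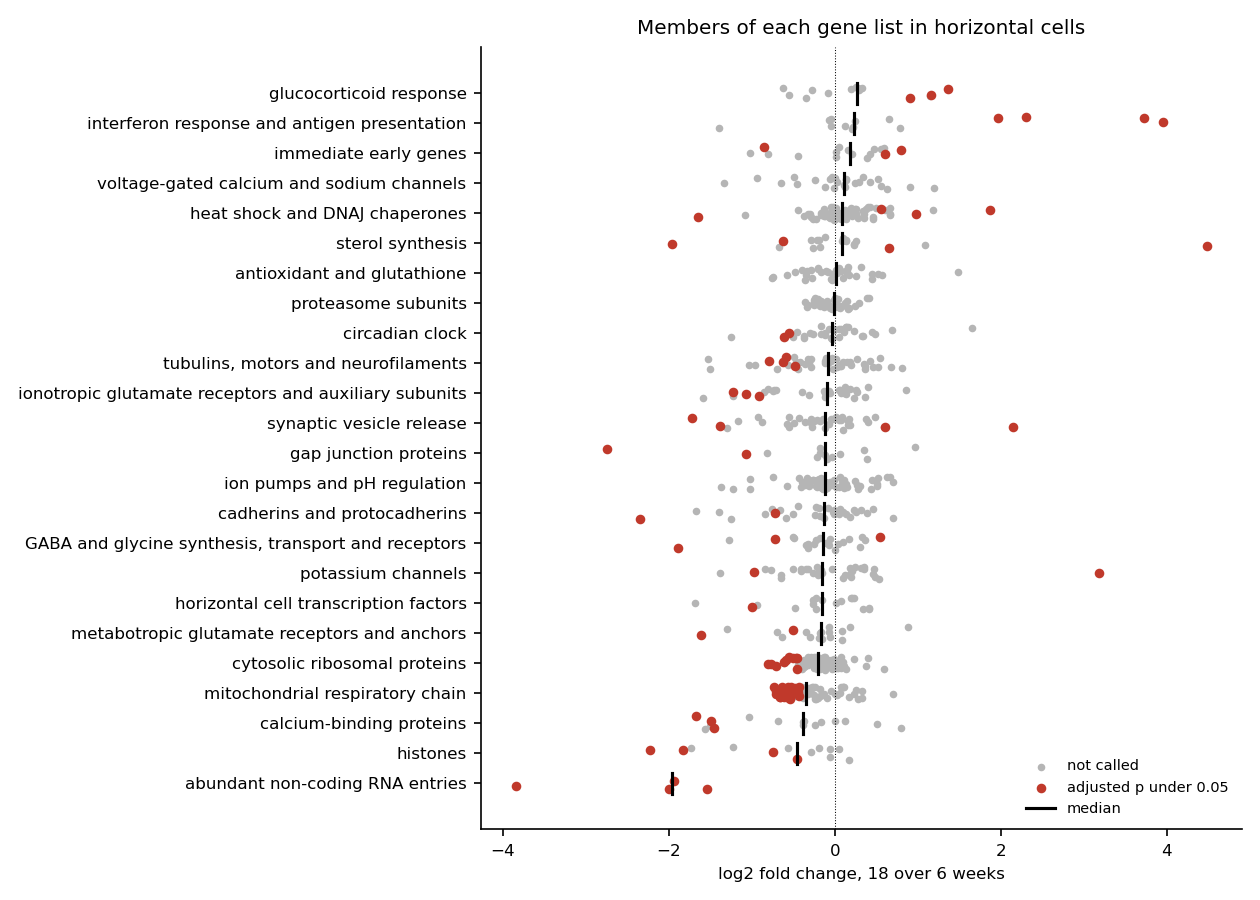
Log2 fold change from 6 to 18 weeks in horizontal cells for every tested member of each gene list, with members called by edgeR in red and the list median as a bar. The non-coding RNA entries (median −1.97), histones (−0.46), calcium-binding proteins (−0.38) and respiratory chain (−0.35) lie lowest, and the glucocorticoid list (0.26) lies highest.

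Non-coding RNAs that carry no poly(A) tail were lower at 18 weeks, with all 4 entries called. 7SK (XLOC_002152), the RNA that holds the elongation factor P-TEFb in reserve, had 445 and 431 CPM at 6 weeks, 472 and 384 CPM at 12 weeks and 20.8 and 39.2 CPM at 18 weeks. Only the 18-week-old libraries were low, with a log2 change of −3.85 (SE 0.20, adjusted p 5.05e-08) that held without each library. The ribosomal RNA entry 28S_rRNA (XLOC_001769) had 15586 and 16622 CPM at 6 weeks, 22701 and 14657 CPM at 12 weeks and 4997 and 3414 CPM at 18 weeks (−1.94, SE 0.20, adjusted p 0.00014). SSU_rRNA_eukarya (XLOC_007249) and 5_8S_rRNA (XLOC_019622) fell by 1.54 (SE 0.17, adjusted p 0.00017) and 2.00 (SE 0.23, adjusted p 0.000223) on the log2 scale. The list of these 4 entries was called lower without each library, and its summed CPM was 19048 and 19710.1 at 6 weeks, 27934 and 18035 at 12 weeks and 6012 and 4405 at 18 weeks. Since the chemistry captures poly(A) tails, these sums are given beside the lists that follow, and their part in those results was not tested.

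The entries called in the respiratory chain and among ribosomal proteins were all lower at 18 weeks, and none of them was called without replicate 2 of 18 weeks. Of 71 nuclear and mitochondrial entries of the respiratory chain 0 were higher and 23 lower (32.4%, against 2.68% of all genes), 58 had a log2 fold change below 0, and the median was −0.35. COX7B2 (XLOC_017804), a small subunit of cytochrome c oxidase, had 714 and 828 CPM at 6 weeks, 672 and 665 CPM at 12 weeks and 469 and 473 CPM at 18 weeks (−0.71, SE 0.11, adjusted p 0.00211). NDUFA7 (XLOC_023375), of complex I, had 282 and 300.3 CPM at 6 weeks, 264 and 250.1 CPM at 12 weeks and 188 and 162 CPM at 18 weeks (−0.74, SE 0.12, adjusted p 0.00289). Both were lowest in the 18-week-old libraries without overlap. Of 89 cytosolic ribosomal proteins 0 were higher and 10 lower (11.2%), 73 had a log2 fold change below 0, and the median was −0.20. RPS20 (XLOC_013659), of the small subunit, had 630.4 and 719 CPM at 6 weeks, 709 and 663 CPM at 12 weeks and 428 and 342 CPM at 18 weeks (−0.81, SE 0.13, adjusted p 0.00211). From 6 to 12 weeks the log2 fold changes of RPS20 and RPL36 were 0.02 and −0.06, neither of them called.

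These counts rested on both libraries of 18 weeks. Without replicate 1 of 18 weeks there were 3 calls in the respiratory chain and 3 in the ribosomal proteins, with medians of −0.43 and −0.25. Without replicate 2 there were 0 calls in either list, with medians of −0.24 and −0.13, so that the direction of the medians was the same while the calls were lost. The adjusted p without replicate 2 was 0.0811 for NDUFA7, 0.0558 for COX7B2, which had 0.0512 without replicate 1, and 0.0770 for RPS20. DESeq2 called 21 of 61 and 14 of 82 entries of the 2 lists that it gave an adjusted p, against 204 of 2971 over all genes. Without replicate 2 of 6 weeks there were 11 and 5 calls. Of 37 proteasome subunits edgeR called 0, with a median of −0.01, and DESeq2 called 0 of the 27 that it gave an adjusted p. The unadjusted p of edgeR was under 0.05 for 4 of the 37, against 2124 of all 11286 genes. PSMC1 (XLOC_025001) had 3177 and 3594 CPM at 6 weeks and 3544 and 3403 CPM at 18 weeks.

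Of the tested histone entries 30.8% were called, all of them lower, against 4.35% of all genes. H1F0 (XLOC_018411), a replacement linker histone of resting cells, fell in 2 steps. It had 787 and 981 CPM at 6 weeks, 291 and 389 CPM at 12 weeks and 186 and 191 CPM at 18 weeks. The ages did not overlap, and both steps were called, with log2 fold changes of −1.38 from 6 to 12 weeks (adjusted p 0.000791) and −0.85 from 12 to 18 weeks (adjusted p 0.00961). The whole fall of 2.23 (log2 fold change −2.23, SE 0.15, adjusted p 8.65e-07) held without each library. Of 13 histone entries 0 were higher and 4 lower, with a median of −0.46, and 2 and 1 were lower without replicates 1 and 2 of 18 weeks. HIST1H1T(2OF2) (XLOC_007374), another linker histone, and H3F3B.1 (XLOC_017621), a replacement histone H3, were called at −0.75 (adjusted p 0.0466) and −0.46 (adjusted p 0.0461), and neither was called without any 1 of the libraries of 6 or 18 weeks (adjusted p 0.0724 to 0.299). GNG13(1OF2) (XLOC_000363), a G protein gamma subunit, had 119 and 144 CPM at 6 weeks, 150.2 and 119 CPM at 12 weeks and 47.6 and 31.4 CPM at 18 weeks (−1.74, SE 0.19, adjusted p 0.00017), and the call held without each library. Also called lower without each library, and named after their values were seen, were RD3 (−1.40), a regulator of retinal guanylate cyclase, ELOVL5 (−1.11), which lengthens fatty acids, and CELSR1A (−2.35), an atypical cadherin of planar polarity.

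RNA of other cell types was measured in the same sums, since free RNA reaches every droplet. The 7 bipolar marker entries summed to 219 and 126 CPM in horizontal cells at 6 weeks, 137 and 98.8 CPM at 12 weeks and 81.6 and 51.2 CPM at 18 weeks, and GRM6(1OF2) was at 0 throughout. CABP5A (XLOC_018375), a calcium-binding protein of bipolar cells that made up most of that sum, was called lower at −1.49 (SE 0.24, adjusted p 0.0029), at a mean of 107 CPM in horizontal and 9124 CPM in bipolar cells. CALB2B (XLOC_013191, calretinin) and PCP4 (XLOC_012335, a calmodulin regulator) were called lower as well, at −1.67 (SE 0.45, adjusted p 0.0479) and −1.34 (SE 0.26, adjusted p 0.00973). CALB2B had a mean of 49.2 CPM in horizontal and 1589.7 CPM in bipolar cells, and PCP4 one of 37.0 and 1367 CPM. The calcium-binding list had 16 tested entries, of which 0 were higher and 3 lower (18.8%, against 4.35% of all genes), these being CABP5A, CALB2B and S100A11. CALB2B had an adjusted p of 0.371 without replicate 2 of 18 weeks and of 0.405 with DESeq2, CABP5A 0.0961 without that library, and PCP4 0.0653 and 0.179 without replicates 1 and 2 of 18 weeks and 0.0903 without replicate 2 of 6 weeks. SMPDL3A (XLOC_009822), an acid sphingomyelinase-like enzyme, fell by 2.30 (SE 0.27, adjusted p 0.000233). For these 4 genes, and for GNG13(1OF2) and RD3 above, the part of RNA from other cells was not tested. Rod markers summed to 1993 and 1825 CPM at 6 weeks and 1561 and 1157 CPM at 18 weeks, cone markers to 581 and 263 CPM and then 350 and 242 CPM, and Müller glia markers to 125 and 220.1 CPM and then 182 and 128 CPM. Amacrine markers (965 and 958 CPM, then 1227 and 1314 CPM) were nearly all GAD1B and ganglion markers (563 and 543 CPM, then 624 and 579.6 CPM) nearly all SLC17A6B. Both entries had higher means in the LHX1A than in the ISL1 cluster, and the part of RNA from other cells in these sums was not tested.

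The lists that remain gave few calls. The share called was 21.1% for sterol synthesis, 6.06% for the circadian clock, 8.16% for tubulins and motors and 6.06% for cadherins, against 4.35% of all genes. Of 19 entries of sterol synthesis 2 were higher, LDLRAP1B and LDLRAD4, which the pattern for LDL receptors took in and which make no sterol. The 2 lower ones were HMGCRA (−1.97, at 2.04 to 12.9 CPM), the rate-limiting enzyme, and MSMO1 (XLOC_002690, −0.63, SE 0.17, adjusted p 0.0433), a later step, which lost its call without any 1 of the libraries of 6 or 18 weeks (adjusted p 0.0781 to 0.273). Of 33 circadian clock entries 0 were higher and 2 lower, DBPA (XLOC_024675, −0.62, adjusted p 0.032) and RORB (XLOC_024136, −0.55, adjusted p 0.0345). Of 49 tubulins, motors and neurofilaments 0 were higher and 4 lower, among them TUBA1C (XLOC_021448, −0.59, adjusted p 0.0154) and TUBA8L3 (XLOC_020313, −0.63, adjusted p 0.0127). Of 33 cadherins 0 were higher and 2 lower, CDH8 (XLOC_000077, −0.72, adjusted p 0.0235) and CELSR1A. Without replicate 1 of 18 weeks the adjusted p was 0.162 for DBPA, 0.108 for RORB, 0.180 for TUBA1C, 0.142 for TUBA8L3 and 0.205 for CDH8, and without replicate 2 it was 0.234, 0.289, 0.0585, 0.0761 and 0.0689. Of 37 antioxidant and glutathione entries edgeR called 0, with a median of 0.01, and DESeq2 called 0 of the 19 that it gave an adjusted p. The unadjusted p of edgeR was under 0.05 for 5 of the 37, against 2124 of all 11286 genes. SOD1 (XLOC_017327) had 364 and 424 CPM at 6 weeks and 395 and 336 CPM at 18 weeks.

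At 12 against 6 weeks 10 genes were higher (0.0886% of the genes tested) and 9 lower (0.0797%), 0.168% in all, and at 18 against 12 weeks 29 were higher (0.257%) and 82 lower (0.727%), 0.984% in all. The 2 counts share the libraries of 12 weeks, and whether they differ was not tested. PDLIM5A (XLOC_024296), a PDZ and LIM domain protein of the cytoskeleton, was lowest at 12 weeks. It had 127 and 132 CPM at 6 weeks, 64.8 and 67.5 CPM at 12 weeks and 92.4 and 87.0 CPM at 18 weeks, with a log2 fold change of −0.97 from 6 to 12 weeks (adjusted p 0.0113) and 0.44 from 12 to 18 weeks (adjusted p 0.176). LDLRAP1B was called in both steps, at 3.03 (adjusted p 0.0382) and 1.46 (adjusted p 0.0377). KNDC1 (1 OF 2) (XLOC_008193), a regulator of Ras in dendrites, had 34.5 and 30.9 CPM at 6 weeks, 29.6 and 34.9 CPM at 12 weeks and 58.5 and 67.4 CPM at 18 weeks. Its rise, like that of PBX3A, was found between 12 and 18 weeks (0.96, adjusted p 0.00961). Between 12 and 18 weeks 4 of the non-coding RNA entries, 6 ribosomal proteins and 4 respiratory chain entries were called lower, and between 6 and 12 weeks 0 of these lists. The count of 19 was 50 and 75 without replicates 1 and 2 of 12 weeks, and 32 and 33 without replicates 1 and 2 of 6 weeks. It was 11 and 12 without replicates 1 and 2 of 18 weeks. The count of 111 was 37 and 23 without replicates 1 and 2 of 18 weeks and 179 and 173 without replicates 1 and 2 of 6 weeks.

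The clusters were then compared with age on their own. In the LHX1A cluster 189 of 10840 genes were higher (1.74%) and 306 lower (2.82%) at 18 against 6 weeks, 4.57% in all, and in the smaller ISL1 cluster 20 of 4111 were higher (0.486%) and 24 lower (0.584%), 1.07% in all. The sums of the ISL1 cluster held 206321 to 344825 UMIs per library, those of the LHX1A cluster 1799199 to 2087881 UMIs, and the part of this depth in the number of calls was not tested. 7SK fell by 3.81 in the LHX1A and 4.14 in the ISL1 cluster (−3.81 and −4.14), H1F0 had −2.15 and −2.75, and LDLRAP1B 4.76 and 3.53, each called in both. The count for the LHX1A cluster was 184 and 113 without replicates 1 and 2 of 18 weeks and 288 and 286 without replicates 1 and 2 of 6 weeks. That for the ISL1 cluster was 24 without replicate 2 of 18 weeks, 23 without replicate 2 of 6 weeks and 66 without replicate 2 of 12 weeks.

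The change from 6 to 18 weeks differed between the 2 clusters for 10 of 10520 genes (0.0951%) when the difference itself was tested, with both clusters taken from the same library. The difference, LHX1A minus ISL1, was positive for 1 of these genes and negative for 9. A gene could enter this test through its level in 1 cluster alone. Several of the 9 were scarce in the LHX1A cluster, such as RPZ5, with means at 6 weeks of 9.97 CPM there and 1392 CPM in the ISL1 cluster. The split of the signs is therefore given without reading a difference in ageing from it. PRPH (XLOC_016782), the intermediate filament peripherin, had 8576 and 11725 CPM at 6 weeks, 11541 and 10579 CPM at 12 weeks and 14316 and 14153 CPM at 18 weeks in the ISL1 cluster. In the LHX1A cluster it had 78.5 and 112 CPM, 44.5 and 114 CPM and then 33.4 and 43.5 CPM. It fell in the LHX1A cluster (−1.30, adjusted p 0.0147), its 0.49 in the ISL1 cluster was not called (adjusted p 0.175), and the difference was −1.77 (LHX1A minus ISL1, SE 0.17, adjusted p 1.63e-17), called without each library as well. With cells thinned to 1000 UMIs it was −1.19 (adjusted p 0.241). TENM1 (XLOC_005052), a teneurin of synaptic adhesion, had 98.1 and 80.5 CPM at 6 weeks and 43.8 and 44.4 CPM at 18 weeks in the LHX1A cluster. In the ISL1 cluster it had 434.8 and 434.9 CPM at 6 weeks and 417 and 483 CPM at 18 weeks, and the difference was −1.04 (SE 0.23, adjusted p 0.00913, and 0.814 without replicate 2 of 18 weeks).

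HSPA1A rose more in the ISL1 cluster. The entry XLOC_003379 had 116 and 76.9 CPM at 6 weeks and 1538 and 319 CPM at 18 weeks there, and 132 and 135 CPM and then 618 and 222 CPM in the LHX1A cluster. In both clusters replicate 1 of 18 weeks was the highest library by far. The difference of −1.54 (SE 0.25, adjusted p 6.59e-06) was not called without that library (adjusted p 0.475). RBP4 (XLOC_018817), a carrier of retinol, had a difference of the other sign. It had 545 and 476 CPM at 6 weeks, 418 and 1532 CPM at 12 weeks and 1133 and 1135 CPM at 18 weeks in the LHX1A cluster, and 83.3 and 46.8 CPM, 36.1 and 88.8 CPM and then 21.7 and 21.6 CPM in the ISL1 cluster. By edgeR within each cluster its rise in the LHX1A cluster was called (1.15, adjusted p 0.047), and its −1.51 in the ISL1 cluster was not (adjusted p 0.292). The difference was 2.70 (SE 0.48, adjusted p 0.000163, and 0.157 without replicate 1 of 6 weeks), and replicate 2 of 12 weeks was as high as the old libraries while replicate 1 was not. With cells thinned the difference was −1.44 for HSPA1A (adjusted p 0.716), 2.42 for RBP4 and −1.13 for TENM1, and none of these was called. Each of PRPH and RBP4 is low in one cluster beside the other, and the part of RNA from cells of the other cluster in their differences was not tested.

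**Figure D5:**
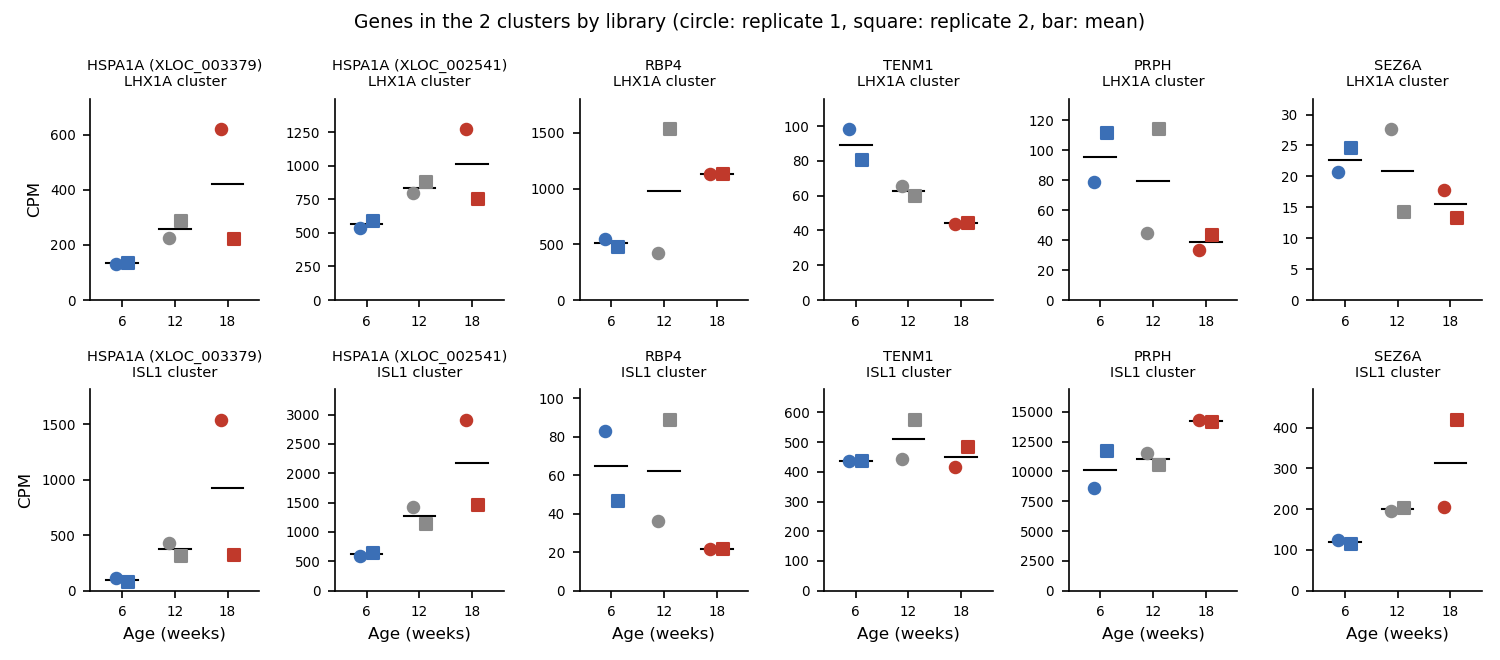
Level (CPM, scaled with TMM within each cluster) of 6 genes in the LHX1A and ISL1 clusters of horizontal cells, for each library by age in weeks. HSPA1A is highest in replicate 1 of 18 weeks of both clusters and PRPH is far higher in the ISL1 cluster. RBP4 is higher at 18 than at 6 weeks in the LHX1A cluster, while its change in the ISL1 cluster, at a low level, was not called.

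RBP4 came from few cells. At a finer resolution of the clustering 38 to 90 cells per library formed a cluster of their own within the LHX1A cells, led by RBP4 and singled out after its values were seen. Of the RBP4 UMIs of all horizontal cells of a library, these cells held 78.9% to 93.1%, at 3411 to 5322 CPM. The other LHX1A cells had 74.6 to 146 CPM. All cells of that cluster had an RBP4 UMI, against 11.2% to 19.9% of the other LHX1A cells and 3.39% to 8.96% of the ISL1 cells, at median depths of 3939 to 6908, 4046 to 6712 and 2980 to 4583 UMIs. The ISL1 cells held only 18 and 14 RBP4 UMIs at 6 weeks and 4 and 5 at 18 weeks. As RBP4 itself differed with age and was used to pick this cluster, the size of the cluster was not tested between ages. Its share of the LHX1A cells was 13.6% and 9.43% at 6 weeks, 8.15% and 25.3% at 12 weeks and 21.8% and 24.5% at 18 weeks. The part of this share in the RBP4 levels of the LHX1A cluster was not tested.

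Changes with age were set against those of amacrine cells, the other large class of inhibitory interneurons, and of bipolar cells and cones, the partners at the same synapses, by a test of the difference in change within a library. The change from 6 to 18 weeks differed for 60 of 14345 genes (0.418%) against amacrine cells, 132 of 14727 (0.896%) against bipolar cells and 84 of 12675 (0.663%) against cones. With cells thinned to 1000 UMIs the counts were 1, 19 and 4. A gene could enter these tests through its level in 1 of the types alone, and some were near the floor in the other type. The counts are therefore given without reading a difference in ageing from them. LDLRAP1B changed by more in horizontal cells than in amacrine or bipolar cells. On the common scale of each fit it went from a mean of 4.49 to 103 CPM in horizontal cells and from 32.4 to 70.4 CPM in amacrine cells (difference in log2 change 3.42, SE 0.36, adjusted p 3.99e-10), and from 6.29 to 30.1 CPM in bipolar cells (difference 2.24, SE 0.35, adjusted p 0.000375). Both differences were called without each library, and with cells thinned to 1000 UMIs the adjusted p was 0.00344 and 0.0833. SORCS2 (XLOC_008627), a sorting receptor, went from 99.0 to 64.4 CPM in horizontal cells and from 14.6 to 52.5 CPM in cones (−2.47, SE 0.25, adjusted p 4.01e-07). IGLON5 (XLOC_010457), a cell adhesion protein, went from 83.8 to 155 CPM in horizontal cells and from 7.48 to 47.4 CPM in cones (−1.78, SE 0.30, adjusted p 0.00179, and 0.231 with cells thinned), a smaller change on the log2 scale, though not in CPM, in horizontal cells than in cones. The counts were 86 and 44 against amacrine cells, 92 and 20 against bipolar cells and 48 and 44 against cones without replicates 1 and 2 of 18 weeks. Without replicates 1 and 2 of 6 weeks they were 56 and 36 against amacrine cells and 70 and 115 against bipolar cells, and without replicates 1 and 2 of 12 weeks they were 236 and 208 against bipolar cells.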

How the data were processed

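Retinal cells of the 6 libraries had been counted with Cell Ranger 7.0.1, per the labels' processing notes, against a custom killifish transcriptome (GRZ assembly, NCBI annotation and long reads of telencephalon RNA). The deposited values are raw UMI counts per gene and cell, not normalized, and the authors had kept cells between a lower and an upper limit of transcripts (1001 to 19991 UMIs per cell in the table) and named the cell types from clusters. Whether doublets were removed is not given in the sources used here, and no doublet caller was run. The cell table holds no names below the level of horizontal cells, so the clusters described here were computed anew.

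Library, age, cell type and counts were read from the deposited tables, and 0 per-sample columns were left unassigned. The UMIs of the horizontal cells were summed per library and gene, and genes were filtered with filterByExpr, scaled by TMM and tested with edgeR's quasi-likelihood test (edgeR 4.0.16, R 4.3.3) with age as a factor of 3 levels, p-values being adjusted after Benjamini and Hochberg over all genes tested. Differences in the change with age between groups of cells were tested as an interaction, with the library as a block. Shares and medians were compared by a two-sided exact permutation test over samples, with the libraries of all ages permuted. With 2 libraries per age its smallest p before adjustment is 0.0222, which cannot pass the threshold once adjusted over the tests made. Clusters came from the Leiden method (scanpy 1.11.5, igraph 0.11.9). Intervals of shares cover counting error at a level of 95%, and a count of 0 allows up to 3 UMIs. Precision rests on 2042239 to 2342958 UMIs per library and on 2 libraries per age. Nothing states that the libraries of an age came from separate days or broods, so p-values measure the spread between these libraries.

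Genes named for their change are the 10 largest rises and the 10 largest falls (3 each for the other ages) among called genes with a symbol, at least 50 CPM at either age and no overlap of the libraries, and from each gene list up to 3 called members with at least 20 CPM or, with none called, the 2 most abundant. Leading genes and the genes of the clusters had at least 100 CPM, 12 of the former and 8 of the latter in each direction. Of the differences in change the 4 largest with at least 50 CPM in horizontal cells were named. Other genes are said to have been named after their values were seen. The members and the lists were chosen with earlier results of these data known. The alternatives were DESeq2's size factors, DESeq2's test (version 1.42.0), no filter on low counts, a replicate block, each library left out in turn, each cell thinned to 1000 UMIs, library sums thinned to the smallest, the 4 libraries of 6 and 18 weeks alone, cells with at least 1500 UMIs and other denominators of the shares. The tests were tried on simulated counts with known changes. No coordinates or sequences were printed, since no genome of the files' build was used here.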

Additional observations from a re-analysis of the deposited data

Results flagged for a closer look

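For 16 results the change from 6 to 18 weeks differed between 2 groups of cells of the same libraries, by a test of the difference itself (edgeR, interaction with age). The genes were chosen by their level in horizontal cells, so that several of them are scarce in the other type. There the test sets a high level against counts near the floor, the part of RNA from other cells was not tested, and the values are given without reading a difference in ageing from them. Between the clusters, LHX1A minus ISL1, these were the log2 differences of HSPA1A (−1.54), RBP4 (2.70), PRPH (−1.77) and TENM1 (−1.04) described above. That of PRPH lay between −1.96 and −1.60 with any 1 library left out. With cells thinned none of these differences was called (adjusted p 0.716 for HSPA1A and 0.241 for PRPH), though each kept its sign.

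Against amacrine cells LDLRAP1B stood at 3.42, with an adjusted p of 0.00344 when cells were thinned. The sodium channel SCN1A (−4.42, SE 0.70, adjusted p 4.76e-05) went from a mean of 1052 to 1156 CPM in horizontal cells and from 0.429 to 12.4 CPM in amacrine cells, with an adjusted p of 0.0553 without replicate 1 of 18 weeks. PRPH (−3.79, SE 0.36, adjusted p 1.58e-11) went from 1576 to 1556 CPM and from 3.87 to 54.2 CPM. HMX3 (−4.46, SE 1.03, adjusted p 0.0178) went from 93.6 to 50.2 CPM and from 0.144 to 2.37 CPM, with 0.0994 without replicate 1 of 18 weeks. In these 3 genes the amacrine level was low at both ages beside that of horizontal cells, and with cells thinned the adjusted p was 0.776, 0.85 and 1.0.

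Against bipolar cells LDLRAP1B differed by 2.24 (adjusted p 0.0833 with cells thinned). GAD1B (1.72, SE 0.19, adjusted p 7.53e-07, and 8.54e-10 with cells thinned) went from 1078 to 1395 CPM in horizontal cells and from 33.6 to 13.5 CPM in bipolar cells. The matrix protein TNC (2.99, SE 0.55, adjusted p 0.0024) went from 338 to 383 CPM in horizontal cells and from 2.80 to 0.367 CPM in bipolar cells. SLC17A6B, the vesicular glutamate transporter (1.496, SE 0.29, adjusted p 0.005), went from 603 to 637 CPM and from 5.41 to 2.05 CPM. Without replicate 2 of 18 weeks the adjusted p of TNC and SLC17A6B was 0.0903 and 0.216, and in all 3 genes the bipolar level was low beside that of horizontal cells.

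Against cones SORCS2 differed by −2.47 and IGLON5 by −1.78, both called without each library, and with cells thinned the adjusted p was 0.000754 and 0.231. TMEM121 (−2.05, SE 0.45, adjusted p 0.0204) went from 119 to 118 CPM in horizontal cells and from 2.62 to 11.6 CPM in cones, with 0.531 without replicate 2 of 18 weeks. The adhesion receptor LPHN3(1OF2) (−1.84, SE 0.26, adjusted p 0.000114) went from 53.2 to 48.2 CPM and from 18.6 to 59.7 CPM, and was called without each library but not with cells thinned (0.183). In these 2 genes the mean moved more in cones than in horizontal cells.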

How the results depend on the processing

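Scaling with DESeq2's size factors left every count of calls within 1.5 times its value, and no called named gene, share or median depth turned its direction under the alternatives run for it. Medians of gene lists that lay near 0 did. With cells thinned to 1000 UMIs the median log2 change of the ionotropic glutamate receptors was 0.04, that of the GABA and glycine list 0.04 and that of the antioxidant list −0.0043, and without replicate 1 of 6 weeks it was 0.04 for the first and −0.03 for the third. The antioxidant median was −0.0064 without replicate 1 of 18 weeks, and the proteasome median 0.0019 without a filter on low counts and 0.0089 without replicate 2 of 6 weeks. At 12 against 6 weeks 8 genes were higher and 25 lower without replicate 2 of 6 weeks, and 57 and 18 without replicate 2 of 12 weeks. Without a filter on low counts there were 838 calls at 18 against 6 weeks, 113 at 12 against 6 and 289 at 18 against 12, 746 in the LHX1A cluster and 68 in the ISL1 cluster, and 206 and 143 differences from bipolar and cone cells. DESeq2's test gave 204 and 6 calls at 18 and at 12 against 6 weeks, 214 in the LHX1A cluster and 23 in the ISL1 cluster, over the fewer genes its filter keeps. With every cell thinned to 1000 UMIs there were 147 calls at 18 against 6 weeks and 48 at 18 against 12, 131 and 21 in the LHX1A and ISL1 clusters, 1 difference between the clusters, and 1, 19 and 4 differences from amacrine, bipolar and cone cells. Thinning to that depth leaves fewer genes to test and fewer UMIs per gene.

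With 1 library left out, calls ran from 79 to 799 at 18 against 6 weeks, from 11 to 75 at 12 against 6 and from 23 to 179 at 18 against 12, from 113 to 642 in the LHX1A cluster, from 23 to 66 in the ISL1 cluster, from 5 to 16 between the clusters, and from 36 to 86, 20 to 236 and 44 to 126 against amacrine, bipolar and cone cells. The share of horizontal cells was 0.156 to 1.31 percentage points higher at 18 than at 6 weeks, the share of the ISL1 cluster −5.27 to −0.43 points different, and the median of UMIs per cell 604 to 2108 higher. A finer clustering, chosen after seeing the data, gave −2.96 points for the ISL1 cluster, and the counts for gene lists under each alternative were likewise added after seeing the data.

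Replicate numbers were used as a replicate block as well. What these numbers stand for is not given. Between ages, the deviations of libraries with the same number from their age means had correlations of −0.0218, −0.000782 and 0.0662 over 11286 genes. With 2 libraries per age these values cannot decide whether libraries with the same number share a batch. With the block there were 500 calls at 18 against 6 weeks, 40 at 12 against 6 and 68 in the ISL1 cluster.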

Other observations

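Other genes were picked after their values were seen. SIX3 (XLOC_007606), a homeobox factor of the eye field, had 721.6 and 699 CPM at 6 weeks and 504 and 656 CPM at 18 weeks in the ISL1 cluster, and 37.0 and 22.4 CPM and then 10.9 and 7.78 CPM in the LHX1A cluster. The difference in change was −1.35 (LHX1A minus ISL1, SE 0.31, adjusted p 0.0217 by edgeR). SEZ6A (XLOC_017175), of a family of neuronal membrane proteins, had 125 and 114 CPM and then 206 and 418 CPM in the ISL1 cluster, and 20.7 and 24.6 CPM and then 17.7 and 13.3 CPM in the LHX1A cluster, a difference of −1.95 (SE 0.38, adjusted p 0.000833). SIX3 fell in the LHX1A cluster (−1.67, adjusted p 0.0024) and SEZ6A rose in the ISL1 cluster (1.42, adjusted p 0.0153), while the other cluster gave no call in either case. Both genes were more abundant in the ISL1 cluster in every library of 6 and 18 weeks. The part of RNA from cells of the other cluster in these values was not tested.

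Among the genes called without each library in turn, FYB (XLOC_006974), an adaptor protein, had 563 and 597 CPM at 6 weeks, 512 and 508 CPM at 12 weeks and 285 and 263 CPM at 18 weeks (−1.08, adjusted p 0.00014). SEC62 (XLOC_015252), a subunit of the protein entry channel of the endoplasmic reticulum, went the same way, from 324 and 356 CPM over 273 and 286 CPM to 205 and 179 CPM (−0.83, adjusted p 0.00107). MBNL1 (XLOC_014778), a splicing regulator, rose from 6.89 and 10.1 CPM over 14.6 and 12.3 CPM to 29.2 and 29.4 CPM (1.77, adjusted p 0.00119). In all 3 genes both libraries of 18 weeks lay outside the range of the 4 younger ones.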
